A study of Mus musculus with 13 samples.

Results

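Integrins and cadherins are the surface receptors by which a cell holds on to the matrix around it and to its neighbours. They were followed here in a mouse RNA sequencing study that asked how skeletal muscle signals to its satellite cells, which renew muscle fibres. The genes were chosen by symbol alone, as every gene of the deposited table named Itga, Itgb or Cdh followed by a number, with Itga8 and Cdh5 left out and Itgav added. That gave 41 of the 23418 genes in the table, of which 11 are integrin alpha chains, 8 are integrin beta chains and 22 are cadherins. Chains whose symbols carry a letter, such as those of leukocytes, and the protocadherins fall outside the rule.

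The study's muscle FAPs (4 libraries, numbered 2 to 5), lung FAPs (5 libraries, 1 to 5) and MEFs (4 libraries, 1 to 4) were compared. In this field FAP stands for fibro/adipogenic progenitor, a mesenchymal cell that lies between muscle fibres, and MEF for mouse embryonic fibroblast. The labels give the abbreviations and, for FAPs, the tissue, and no treatment, strain, sex, age, sort or culture condition is given in the sources used here. The libraries held 41327292 to 44699463 reads counted on genes for muscle FAPs, 28636183 to 35464622 for lung FAPs and 33756915 to 41466585 for MEFs. The parabiosis experiments of the series were not analysed here.

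An integrin is a pair of one alpha and one beta chain that spans the membrane, binds matrix outside and links to actin inside through talin, kindlin and focal adhesion proteins. The alpha chain largely sets the ligand, so that different chains receive collagen, laminin or proteins with the RGD motif of fibronectin and vitronectin. Classical cadherins bind the same or a similar cadherin on a neighbouring cell and are tied to actin by catenins. Fibroblasts are known for the integrin α11β1 collagen receptor and for cadherin-11, and cultured fibroblasts for N-cadherin.

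Defining markers were checked first. The summed level of Pdgfra, Ly6a and Cd34, surface markers of FAPs, was 3614 to 3915 CPM (the read count relative to library size, scaled by TMM) in muscle FAPs, 2591 to 4066 in FAPs of lung and 113 to 159 in MEFs. Of markers of other cells, the 8 endothelial genes summed to 656 CPM in lung FAP 2, against 55.3 to 226 in the other lung FAPs, 3.58 to 11.9 in muscle FAPs and 167 to 198 in MEFs. The MEF sum does not stand for the whole list. Of the 8 genes, 6 were higher and 1 lower in lung FAPs than in MEFs, with a median log2 fold change of 4.64. Of all genes 37.8% were higher and 36.6% lower in that comparison. Pericyte and smooth muscle genes also stood highest in lung FAP 2 among the lung libraries. The 8 lung epithelial genes summed to 7951 CPM in lung FAP 3, against 41.1 to 120.2 in the other lung FAPs, and blood cell genes to 658, against 31.8 to 63.9. Blood cell genes summed to 6.19 to 8.70 CPM in muscle FAPs, against 162 to 547 in MEFs. Counts are given with and without lung FAP 2 and 3, as are the values that passed and that leaving both out moved by over 1.5 times. In such bulk libraries, fewer cells of a type and less RNA per cell cannot be told apart.

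Taken per kb of exon, so that genes can be set side by side, the alpha chains summed to 216 ± 7.93 CPM per kb in muscle FAPs (SD, n = 4), 109 ± 8.501 in lung FAPs (n = 5) and 147 ± 11.03 in MEFs (n = 4). The same n hold throughout. The beta chains summed to 385 ± 16.3 CPM per kb in muscle FAPs, 305 ± 18.1 in FAPs of lung and 599 ± 106 in MEFs. The cadherins summed to 21.8 ± 4.16 CPM per kb in muscle FAPs, 52.7 ± 8.66 in FAPs of lung and 182 ± 17.4 in MEFs. Muscle FAPs thus held the highest sum of alpha chains and the lowest sum of cadherins, and for both of these sums the libraries of muscle FAPs overlapped neither other group. The sums rest on TMM scaling and were not recomputed with library size alone. That scaling shifts the median log2 fold change of all genes by −0.58 in muscle FAPs against MEFs, so the order of their alpha sums may not hold under it.

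The make-up of each family also differed by group. Itga5, the fibronectin receptor chain, had the highest mean level per kb of the alpha chains in each group, though Itgav exceeded it in MEF 1 and MEF 4. It held a mean share of 48.8% of the alpha sum in muscle FAPs, 52.0% in FAPs of lung and 37.0% in MEFs. Itga11 held 27.8% in muscle FAPs, 10.8% in FAPs of lung and 0.972% in MEFs. Itgav held 10.7% in muscle FAPs, 10.8% in FAPs of lung and 34.8% in MEFs. Among beta chains, Itgb1 held 60.2% in muscle FAPs, 65.2% in FAPs of lung and 85.9% in MEFs, and Itgb5 held 36.0%, 32.0% and 12.9%. Among cadherins, Cdh11 and Cdh13 led in muscle FAPs with 42.3% and 38.1%, Cdh11 led in lung FAPs with 72.5%, and Cdh2 and Cdh11 led in MEFs with 44.98% and 40.7%. The shares leave out Itga8 and Cdh5, as the rule does.

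**Figure D1:**
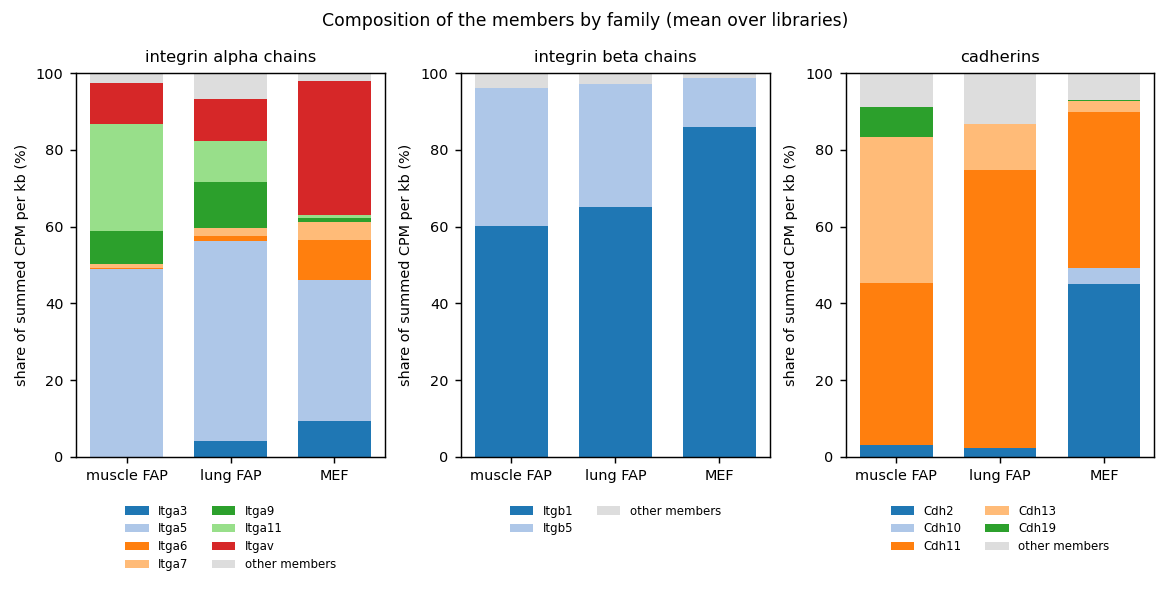
Mean share (%) of each gene in the summed CPM per kb of its family, over the libraries of muscle FAPs, lung FAPs and MEFs; genes under 4% in every group are pooled as other members. Itga11 falls off along the alpha bars (27.8%, 10.8% and 0.972%), Itgb1 takes 85.9% of the beta bar in MEFs, and Cdh2 takes 44.98% of the cadherin bar in MEFs, where it takes 3.03% and 2.26% in muscle and lung FAPs.

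Of the 41 genes, 38 were expressed enough to be tested. Muscle FAPs against lung FAPs gave 9 higher, 11 lower and 18 that did not pass (edgeR quasi-likelihood test over 15412 genes, Benjamini-Hochberg adjusted p under 0.05, no minimum fold). Over all genes tested 23.2% were higher and 25.0% lower in that comparison, and the members' shares of 23.7% and 28.9% lay near that background. In either direction 48.2% of all genes passed. The libraries did not overlap for 8 genes higher and 9 lower, where 19.0% and 19.0% of all genes did not. Integrins and cadherins differed in their directions: among the 19 integrins 8 were higher and 4 lower, while among 19 tested cadherins 1 was higher and 7 lower. The difference between the families was not tested. The median log2 fold change of the 38 was −0.27, against −0.04 over all genes tested. Library size as the only scaling shifts the median of all genes by −0.41 here, and Itga2, Itga9, Itgb3 and Itgb5 then no longer passed (5 higher), with their direction kept. Itga6 and Itga10 then passed as lower. When a change beyond 2-fold was asked for (glmTreat), Itga2, Itga5, Itga9, Itgav, Itgb3 and Itgb5 no longer passed as higher, nor Itgb4 as lower. Under either setting the integrins called higher no longer outnumbered those called lower.

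**Figure D2:**
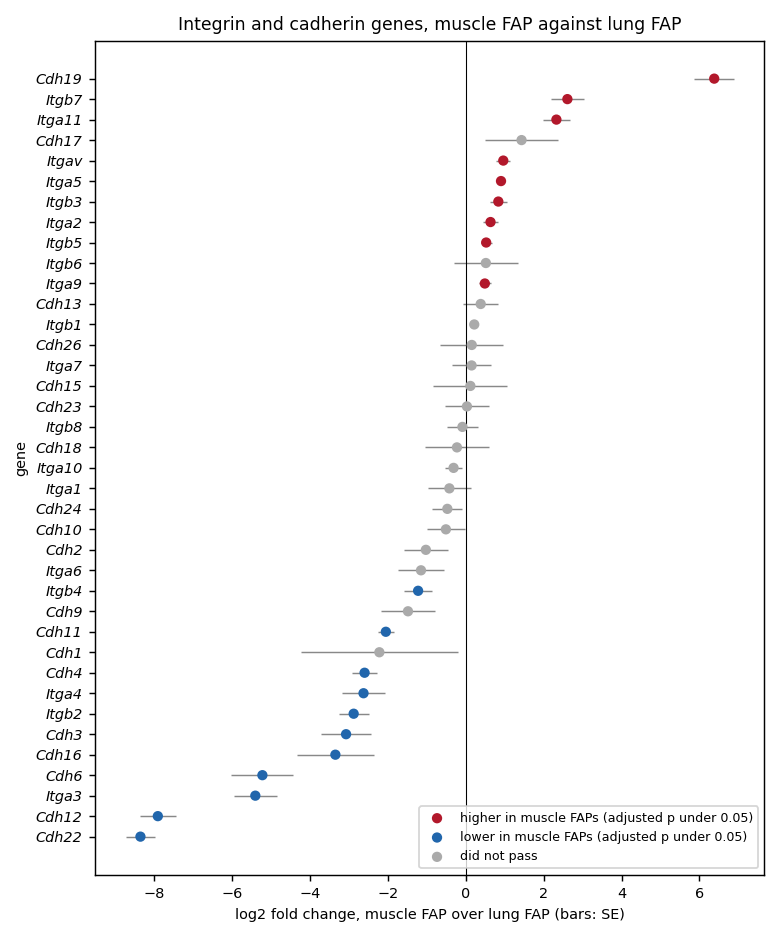
Fitted log2 fold change of each of the 38 tested genes, muscle FAP over lung FAP, with its SE; red genes were higher and blue genes lower at an adjusted p under 0.05, and grey genes did not pass. Cdh19, Itgb7 and Itga11 lie farthest to the right at 6.38, 2.61 and 2.33, and Cdh22 and Cdh12, with 1 read and no read in muscle FAPs, farthest to the left. For genes with so few reads the bar can understate the error.

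Against MEFs more of the genes differed, as did more genes in all. Muscle FAPs against MEFs gave 12 higher, 19 lower and 7 that did not pass, where 36.1% of all genes tested were higher and 37.3% lower, or 73.5% together. The libraries did not overlap for 13 genes higher and 20 lower, against 35.7% and 38.2% of all genes. The median log2 fold change of the members was −1.30, or −1.16 with Cdh12 at its bound, against −0.04 over all genes. Lung FAPs against MEFs gave 11 higher, 16 lower and 11 that did not pass, where 37.8% of all genes were higher and 36.6% lower, or 74.4% together, with a median of −0.31 against 0.02. The libraries did not overlap for 9 higher and 15 lower, against 32.2% and 33.1% of all genes. The 3 comparisons share their libraries, so their counts are not independent. The heat map of the 29 genes that reached a mean of 5 CPM in any group shows both patterns side by side.

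**Figure D3:**
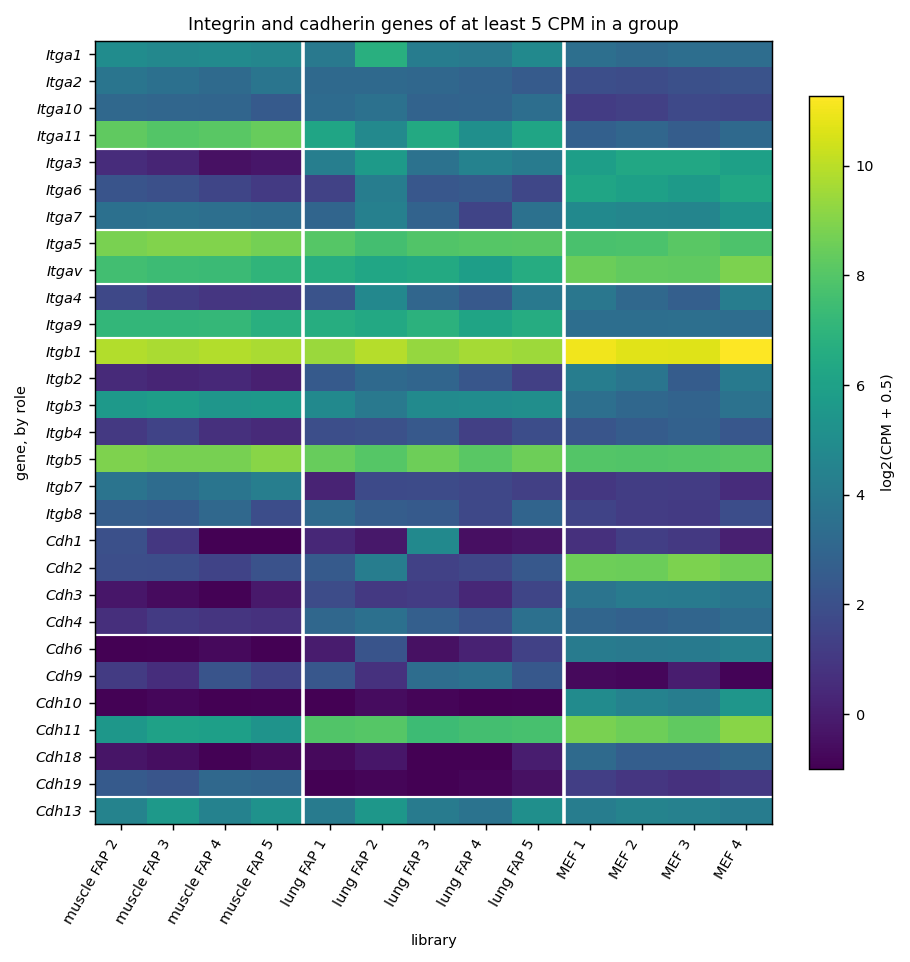
Level of 29 integrin and cadherin genes as log2(CPM + 0.5) in each library, with muscle FAPs left, lung FAPs in the middle and MEFs right, and white lines between groups and between roles. Itga11, Itga9 and Itgb3 are bright on the left and dark on the right, Cdh2, Cdh10 and Itga6 the reverse, and single bright cells mark Itga1 in lung FAP 2 (108 CPM) and Cdh1 in lung FAP 3 (27.4 CPM).

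The collagen-binding alpha chains Itga1, Itga2, Itga10 and Itga11 all pair with Itgb1. All 4 were higher than in MEFs in both kinds of FAP, where 36.1% of all genes were higher in muscle FAPs and 37.8% in lung FAPs. Of the 4, Itga11 and Itga2 were also higher in FAPs of muscle than of lung, where 23.2% of all genes were higher. Itga11, whose product binds fibrillar collagen and is best known from fibroblasts, stood at 309.8, 257, 281 and 342 CPM in muscle FAPs, 74.2, 27.0, 86.8, 33.7 and 74.7 CPM in lung FAPs, and 6.40, 7.71, 5.59 and 8.79 CPM in MEFs. The 3 groups did not overlap. It was 5.02-fold higher in FAPs of muscle than of lung (log2 fold change of 2.33, SE 0.35, adjusted p = 2.92e-05 by edgeR), 41.7-fold higher than in MEFs (5.38, SE 0.17, adjusted p = 1.60e-08), while lung FAPs were 8.32-fold above MEFs (3.06, SE 0.37, adjusted p = 1.50e-06). Lung FAP 2 and lung FAP 4, which also have the highest endothelial sums of their group, held the lowest Itga11 of the lung FAPs. Without lung FAP 2 and 3 the muscle over lung value was 2.28.

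Itga2, another receptor of fibrillar collagen that is best known from platelets and epithelia, had 13.1, 11.2, 9.07 and 13.4 CPM in muscle FAPs, 8.56, 8.73, 8.13, 6.91 and 5.27 CPM in lung FAPs, and 3.42, 3.16, 3.48 and 3.95 CPM in MEFs. Its levels stepped down from group to group without overlap. The log2 fold change was 0.63 for muscle over lung FAPs (SE 0.19, edgeR adjusted p = 0.00740), 1.74 for muscle FAPs over MEFs (adjusted p = 7.72e-07) and 1.10 for lung FAPs over MEFs (adjusted p = 5.31e-05). Itga10, a chain known from cartilage, had 8.45, 7.78, 7.63 and 5.12 CPM in muscle FAPs, 9.19, 11.4, 6.91, 7.24 and 10.2 CPM in lung FAPs, and 1.77, 1.996, 2.73 and 2.52 CPM in MEFs. Both kinds of FAP lay above every MEF library, by 3.21-fold in muscle FAPs (log2 fold change of 1.68, SE 0.21, adjusted p = 6.96e-06 by edgeR) and 3.99-fold in lung FAPs (1.997, SE 0.20, adjusted p = 7.91e-07), and they overlapped each other (−0.31, adjusted p = 0.228).

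Itga1, which prefers the collagen of basement membranes and is abundant on vascular smooth muscle, had 30.8, 26.0, 28.9 and 23.9 CPM in muscle FAPs, 15.0, 108, 17.1, 15.3 and 27.8 CPM in lung FAPs, and 10.8, 8.81, 10.2 and 10.0 CPM in MEFs. Lung FAP 2 stood far above the other lung FAPs. With it muscle and lung FAPs did not pass (log2 fold change of −0.42, SE 0.54, adjusted p = 0.545 by edgeR), and without it Itga1 was higher in muscle FAPs (0.56, adjusted p = 0.0176); without lung FAP 2 and 3 the value was 0.49 (adjusted p = 0.0572). Muscle FAPs were 2.75-fold above MEFs (log2 fold change of 1.46, SE 0.10, adjusted p = 0.0359 by edgeR), a call lost on leaving out any of the 8 libraries compared (adjusted p 0.0526 to 0.0856) and when libraries were scaled by size alone (0.204), and kept when the compared groups were fitted without the lung FAPs (1.79e-07). In lung FAPs it was 3.69-fold higher than in MEFs (1.88, SE 0.54, adjusted p = 0.00882), and the log2 value was 0.89 without lung FAP 2. Itga1 and Itga2 are neighbours on mouse chromosome 13, at chr13:114953096-115101964 and chr13:114833081-114932100 of GRCm38 (mm10), both on the minus strand.

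The laminin-binding alpha chains Itga3, Itga6 and Itga7 went the other way against MEFs. All 3 were lower than in MEFs in both kinds of FAP, where 37.3% of all genes were lower in muscle FAPs and 36.6% in lung FAPs. Itga3, which receives the laminins of epithelial basement membrane, had 0.961, 0.7098, 0.230 and 0.329 CPM in muscle FAPs, 18.5, 50.6, 11.9, 21.2 and 16.7 CPM in lung FAPs, and 58.4, 80.6, 81.5 and 61.6 CPM in MEFs. Every muscle FAP library lay below 1 CPM, and no group overlapped another. It was 42.4-fold lower in FAPs of muscle than of lung (log2 fold change of −5.41, SE 0.55, adjusted p = 2.57e-06 by edgeR), 126-fold lower than in MEFs (−6.97, SE 0.44, adjusted p = 6.53e-08), and 2.97-fold lower in lung FAPs than in MEFs (−1.57, SE 0.37, adjusted p = 0.00167). Mesothelial markers summed to 0.662 to 24.7 CPM in muscle FAPs, 317 to 777 in FAPs of lung and 24.5 to 33.0 in MEFs, and their part in the Itga3 difference was not tested.

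Itga6, the other epithelial laminin receptor chain and one also found on endothelium, had 4.05, 3.49, 2.48 and 1.65 CPM in muscle FAPs, 2.21, 17.9, 4.56, 5.12 and 2.59 CPM in lung FAPs, and 73.4, 61.6, 50.7 and 79.6 CPM in MEFs. MEFs stood above all FAPs, and lung FAP 2 above all other FAPs. It was 22.7-fold lower in muscle FAPs than in MEFs (log2 fold change of −4.51, SE 0.32, adjusted p = 3.12e-05 by edgeR) and 10.2-fold lower in lung FAPs than in MEFs (−3.35, SE 0.55, adjusted p = 0.000103; −4.23 without lung FAP 2). Muscle and lung FAPs did not pass (−1.15, adjusted p = 0.111), although without lung FAP 1 the value was −1.37 (adjusted p = 0.0454). Without lung FAP 2 and 3 it was −0.18 (adjusted p = 0.686). Itga7, the laminin receptor chain of muscle fibres, had 10.98, 11.7, 10.6 and 9.46 CPM in muscle FAPs, 7.53, 19.6, 7.00, 2.39 and 11.5 CPM in lung FAPs, and 28.1, 24.6, 23.6 and 39.7 CPM in MEFs. All MEF libraries lay above all FAP libraries (−1.44 for muscle FAPs, edgeR adjusted p = 0.00858; −1.59 for lung FAPs, adjusted p = 0.00291). The FAPs overlapped each other (0.15, adjusted p = 0.792). Itga7 shares 9 exon bases with Mettl7b on the opposite strand, and whether the counting used strand is not given in the sources used here.

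The bases before the RefSeq starts of Itga11 and Itga3, which lay farthest apart among the alpha chains in muscle over lung FAPs, are shown with those of Cdh10, described further on. They were chosen after their values were seen. Each is printed 5′ to 3′ in the direction of its gene, from RefSeq on GRCm38.p6, and ends before both the RefSeq and the GENCODE start where these lie within the 250 bases searched. Capitals mark matches, on either strand, to CAGGTG (the E-box form bound by the Snail and ZEB repressors), GGGCGG (Sp1), GGAATG (TEAD) or TGANTCA (AP-1).
Itga11, chr9:62677605-62677825, plus strand: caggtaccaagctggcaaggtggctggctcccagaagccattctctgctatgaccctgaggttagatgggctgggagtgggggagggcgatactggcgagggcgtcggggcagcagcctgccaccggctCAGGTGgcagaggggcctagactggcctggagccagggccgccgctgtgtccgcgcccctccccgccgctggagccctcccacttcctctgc
Itga3, chr11:95076802-95076964, minus strand: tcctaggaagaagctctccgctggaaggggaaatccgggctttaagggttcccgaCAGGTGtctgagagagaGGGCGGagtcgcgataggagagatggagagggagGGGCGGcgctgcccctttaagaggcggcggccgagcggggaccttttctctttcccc
Cdh10, chr15:18820079-18820328, plus strand: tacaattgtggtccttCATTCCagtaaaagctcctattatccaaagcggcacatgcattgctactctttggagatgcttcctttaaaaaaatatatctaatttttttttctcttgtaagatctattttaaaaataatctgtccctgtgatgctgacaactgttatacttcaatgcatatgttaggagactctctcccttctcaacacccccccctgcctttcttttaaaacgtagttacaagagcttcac
The CAGGTG match stood in Itga11, which was higher in both kinds of FAP than in MEFs, and equally in Itga3, which was lower. It occurred in 17.2% of 32851 RefSeq windows of this length and in 25.8% of the 31 windows of the 27 members that have one. The Sp1 letters, 2 of them in the stretch printed for Itga3, occurred in 32.7% of all windows and 35.5% of the members'. The TEAD letters, on the other strand in Cdh10, occurred in 12.6% and 16.1%, and the AP-1 letters in 6.75% and 0%. The Cdh10 stretch lies inside the GENCODE gene record, which starts further upstream, and the stretches of Itga11 and Itga3 end where theirs start. No base lay in 2 motifs in the windows printed, and a match is a description of the letters alone.

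The RGD-binding chains Itga5 and Itgav were both higher in FAPs of muscle than of lung and parted against MEFs. Itga5, which with Itgb1 forms the main fibronectin receptor, had 452, 488, 497 and 415 CPM in muscle FAPs, 258, 197, 248, 262 and 271 CPM in lung FAPs, and 215, 225, 284 and 227 CPM in MEFs. Every muscle FAP library lay above every other library. The difference was 1.87-fold from lung FAPs (log2 fold change of 0.90, SE 0.10, adjusted p = 1.71e-05 by edgeR) and 1.95-fold from MEFs (0.96, SE 0.11, adjusted p = 4.81e-06), while lung FAPs and MEFs overlapped (0.06, adjusted p = 0.673). Itgav, which pairs with several beta chains to bind vitronectin and to release TGF-beta, had 186, 171, 162 and 131 CPM in muscle FAPs, 98.4, 76.5, 88.6, 58.4 and 95.9 CPM in lung FAPs, and 367, 319, 313 and 456 CPM in MEFs. Here MEFs stood highest, muscle FAPs between and lung FAPs lowest, with no overlap. Itgav was 1.95-fold higher in FAPs of muscle than of lung (log2 fold change of 0.96, SE 0.17, adjusted p = 0.000164 by edgeR). It was 2.23-fold lower in muscle FAPs than in MEFs (−1.16, SE 0.16, adjusted p = 1.81e-05) and 4.35-fold lower in lung FAPs than in MEFs (−2.12, SE 0.19, adjusted p = 1.24e-08).

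Itga4 and Itga9 encode sister chains that bind VCAM-1, fibronectin and other ligands, the first best known from leukocytes. They moved apart. Itga9, which also receives tenascin-C and osteopontin, had 138, 138, 144 and 107 CPM in muscle FAPs, 99.9, 85.6, 116, 72.0 and 95.5 CPM in lung FAPs, and 10.3, 10.3, 10.8 and 9.88 CPM in MEFs. Both kinds of FAP stood far above MEFs, by 12.7-fold in muscle FAPs (log2 fold change of 3.67, SE 0.10, adjusted p = 1.03e-11 by edgeR) and 9.08-fold in lung FAPs (3.18, SE 0.12, adjusted p = 2.81e-11). Muscle FAPs were also 1.40-fold higher than lung FAPs (0.49, SE 0.15, adjusted p = 0.00470), though muscle FAP 5 lay below lung FAP 3. Itga4 had 2.65, 1.83, 1.44 and 1.497 CPM in muscle FAPs, 3.95, 26.0, 7.75, 4.82 and 14.9 CPM in lung FAPs, and 14.2, 8.36, 5.97 and 17.7 CPM in MEFs. Every muscle FAP library lay below every other library, by 6.18-fold from lung FAPs (log2 fold change of −2.63, SE 0.54, adjusted p = 0.00173 by edgeR) and 6.22-fold from MEFs (−2.64, SE 0.41, adjusted p = 0.000967). Lung FAPs and MEFs overlapped (−0.01, adjusted p = 0.986). Without lung FAP 2 and 3 the muscle over lung value was −2.09 (adjusted p = 0.00255). The levels of Itga4 were lowest in the group with the lowest blood cell sum, and the part of blood cells was not tested. Itga4 shares 127 of its 9767 exon bases with Cerkl on the opposite strand.

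Among the beta chains, muscle FAPs exceeded lung FAPs in Itgb3, Itgb5 and Itgb7, and fell below them in Itgb2 and Itgb4. Itgb7, which pairs with Itga4 and is best known from lymphocytes that home to the gut, had 12.8, 9.76, 13.1 and 18.4 CPM in muscle FAPs, 0.659, 2.85, 3.01, 2.53 and 2.05 CPM in lung FAPs, and 1.503, 1.87, 1.75 and 0.963 CPM in MEFs. Every muscle FAP library lay above every lung FAP and MEF library. The level was 6.10-fold higher in FAPs of muscle than of lung (log2 fold change of 2.61, SE 0.43, adjusted p = 2.23e-05 by edgeR) and 8.89-fold higher than in MEFs (3.15, SE 0.28, adjusted p = 2.45e-06). The blood cell sum was lowest in muscle FAPs, and the part of blood cells in the Itgb7 levels was not tested. Lung FAPs and MEFs overlapped (0.54, adjusted p = 0.173), and without lung FAP 1, the lowest, lung FAPs were higher (0.78, adjusted p = 0.0106).

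Itgb3 and Itgb5 pair with Itgav to form vitronectin receptors. Itgb3 had 47.2, 56.4, 43.0 and 46.2 CPM in muscle FAPs, 28.0, 14.9, 28.5, 30.9 and 32.7 CPM in lung FAPs, and 10.9, 8.07, 6.88 and 11.8 CPM in MEFs. The groups stepped down from muscle FAPs to lung FAPs to MEFs with no overlap, and lung FAP 2 was lowest in its group. Muscle FAPs were 1.78-fold above lung FAPs (log2 fold change of 0.84, SE 0.22, adjusted p = 0.00333 by edgeR) and 5.13-fold above MEFs (2.36, SE 0.20, adjusted p = 1.97e-07), and lung FAPs were 2.87-fold above MEFs (1.52, SE 0.27, adjusted p = 1.16e-05). Itgb5 had 482, 427, 425 and 552 CPM in muscle FAPs, 339, 264, 377, 281 and 379.8 CPM in lung FAPs, and 255, 246, 256 and 269 CPM in MEFs. Muscle FAPs again lay above both other groups without overlap, 1.44-fold over lung FAPs (log2 fold change of 0.52, SE 0.14, adjusted p = 0.00298 by edgeR) and 1.84-fold over MEFs (0.88, SE 0.09, adjusted p = 2.56e-05). Lung FAPs were 1.28-fold above MEFs with overlapping libraries (0.35, SE 0.11, adjusted p = 0.0195), and that call was lost without lung FAP 5 (adjusted p = 0.0691) or MEF 2 (0.0523). Thus Itgav was highest in MEFs, while Itgb3 and Itgb5 were highest in muscle FAPs.

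Itgb1, the common partner of most alpha chains, had 922, 851, 925 and 837 CPM in muscle FAPs, 696, 950.2, 651, 792 and 713 CPM in lung FAPs, and 2083, 1686, 1635 and 2472 CPM in MEFs. MEFs stood above both kinds of FAP, 2.23-fold over muscle FAPs (log2 fold change of −1.16, SE 0.14, adjusted p = 7.25e-06 by edgeR, muscle over MEF) and 2.59-fold over lung FAPs (−1.37, SE 0.17, adjusted p = 5.23e-07, lung over MEF). Muscle and lung FAPs overlapped (0.22, adjusted p = 0.237). Itgb8, which with Itgav activates TGF-beta, had 5.56, 5.09, 8.49 and 3.29 CPM in muscle FAPs, 8.99, 5.68, 5.04, 2.69 and 7.37 CPM in lung FAPs, and 2.30, 1.74, 1.64 and 3.22 CPM in MEFs. It was higher than in MEFs in muscle FAPs (log2 fold change of 1.33, SE 0.35, adjusted p = 0.00393 by edgeR) and in lung FAPs (1.42, SE 0.37, adjusted p = 0.00188), where lung FAP 4 overlapped the MEFs, and muscle and lung FAPs overlapped (−0.09, adjusted p = 0.854). When libraries were scaled by size alone the call for muscle FAPs against MEFs was lost (adjusted p = 0.0666).

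Itgb2, the beta chain of leukocytes, had 0.874, 0.7098, 0.835 and 0.569 CPM in muscle FAPs, 5.04, 8.73, 7.42, 4.39 and 2.02 CPM in lung FAPs, and 17.7, 13.1, 5.45 and 15.5 CPM in MEFs. All muscle FAPs lay below 1 CPM and below every other library (log2 fold change of −2.88, SE 0.39, adjusted p = 7.78e-05 by edgeR against lung FAPs; −4.11, SE 0.40, adjusted p = 1.19e-06 against MEFs). Lung FAPs were lower than MEFs (−1.23, SE 0.53, adjusted p = 0.00768), although MEF 3 lay within the range of lung FAPs. MEF 3 also had the lowest blood cell sum of the MEFs, 162 CPM, against 389.7 to 547 in the others. Lung FAP 3, with a blood cell sum of 658 CPM, had less Itgb2 than lung FAP 2, with a sum of 63.9. The part of blood cells in the Itgb2 levels was not tested. Itgb4, the partner of Itga6 in epithelial hemidesmosomes, had 1.54, 2.28, 1.15 and 0.868 CPM in muscle FAPs, 3.32, 3.57, 4.95, 1.99 and 3.25 CPM in lung FAPs, and 4.22, 5.52, 6.61 and 4.61 CPM in MEFs. It was lower in FAPs of muscle than of lung (log2 fold change of −1.23, SE 0.35, adjusted p = 0.00478 by edgeR), with muscle FAP 3 above lung FAP 4, and lower than in MEFs (−1.84, SE 0.32, adjusted p = 0.000123). Lung FAPs and MEFs did not pass (−0.62, adjusted p = 0.0734), but passed without lung FAP 3 (−0.78, adjusted p = 0.0306). Itgb6, an epithelial partner of Itgav, stayed below 1 CPM in every library, between 0 and 0.894 CPM, and passed in no comparison of the edgeR fit over all groups. Muscle FAPs passed as higher than MEFs when those groups were fitted alone (1.58, adjusted p = 0.00376).

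Of 19 cadherins tested, 11 were lower, 2 higher and 6 did not pass in muscle FAPs against MEFs, where 37.3% of all genes were lower and 36.1% higher. In lung FAPs against MEFs 10 were lower, 3 higher and 6 did not pass, where 36.6% of all genes were lower and 37.8% higher. Of the classical type I cadherins, Cdh2 (N-cadherin, the main cadherin of cultured fibroblasts, neurons and muscle cells) had 3.41, 3.28, 2.30 and 3.83 CPM in muscle FAPs, 5.13, 18.1, 2.12, 2.56 and 4.63 CPM in lung FAPs, and 375, 371, 467 and 394 CPM in MEFs. MEFs stood far above every FAP library. The level was 125-fold lower in muscle FAPs (log2 fold change of −6.97, SE 0.17, adjusted p = 1.01e-06 by edgeR) and 61.5-fold lower in lung FAPs (−5.94, SE 0.54, adjusted p = 1.01e-06; −6.82 without lung FAP 2). Muscle and lung FAPs overlapped and did not pass (−1.03, adjusted p = 0.138). That comparison passed without lung FAP 3 (−1.25, adjusted p = 0.0482) and not without lung FAP 2 and 3 (−0.37, adjusted p = 0.181).

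Cdh3 (P-cadherin, of basal epithelia) had 0.349, 0.148, 0.0288 and 0.389 CPM in muscle FAPs, 3.12, 1.54, 1.76, 0.798 and 2.498 CPM in lung FAPs, and 12.7, 16.6, 16.04 and 12.97 CPM in MEFs. The groups did not overlap, and muscle FAPs were lowest (log2 fold change of −3.08, SE 0.65, adjusted p = 0.000121 by edgeR against lung FAPs; −5.98, SE 0.57, adjusted p = 7.65e-08 against MEFs), with lung FAPs 7.48-fold below MEFs (−2.90, SE 0.34, adjusted p = 8.91e-06). Cdh4 (R-cadherin, of retina and nervous system) had 1.08, 1.63, 1.35 and 1.197 CPM in muscle FAPs, 8.08, 10.9, 6.02, 3.72 and 11.1 CPM in lung FAPs, and 7.39, 6.45, 7.54 and 9.59 CPM in MEFs. Muscle FAPs lay below every other library, 6.06-fold below lung FAPs (log2 fold change of −2.60, SE 0.32, adjusted p = 6.73e-06 by edgeR) and 5.88-fold below MEFs (−2.56, SE 0.17, adjusted p = 2.43e-06), while lung FAPs and MEFs overlapped (0.04, adjusted p = 0.891). Cdh1 (E-cadherin, the adhesion molecule of epithelia) had 3.49, 1.48, 0 and 0 CPM in muscle FAPs, 0.773, 0.371, 27.4, 0.199 and 0.301 CPM in lung FAPs, and 1.14, 1.89, 1.54 and 0.553 CPM in MEFs. It passed in no comparison, and its one high value fell in lung FAP 3, the library with the highest lung epithelial sum. Without lung FAP 2 and 3 its muscle over lung value was 1.53 (adjusted p = 0.333; −2.22 with them) and its lung over MEF value −1.58 (adjusted p = 0.257; 2.18 with them). The part of epithelial cells was not tested. Cdh15 (M-cadherin, of satellite cells and myoblasts) ran from 0 to 1.10 CPM over the 13 libraries and passed in no comparison, though it lay lower in all muscle FAPs than in all MEFs (−1.93, adjusted p = 0.0948, and 0.0154 with those groups fitted alone). The satellite cell and myoblast markers Pax7, Myf5 and Myod1 summed to 0 to 0.144 CPM in muscle FAPs, 0 to 0.542 in FAPs of lung and 1.19 to 2.09 in MEFs, and their part in the Cdh15 levels was not tested.

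**Figure D4:**
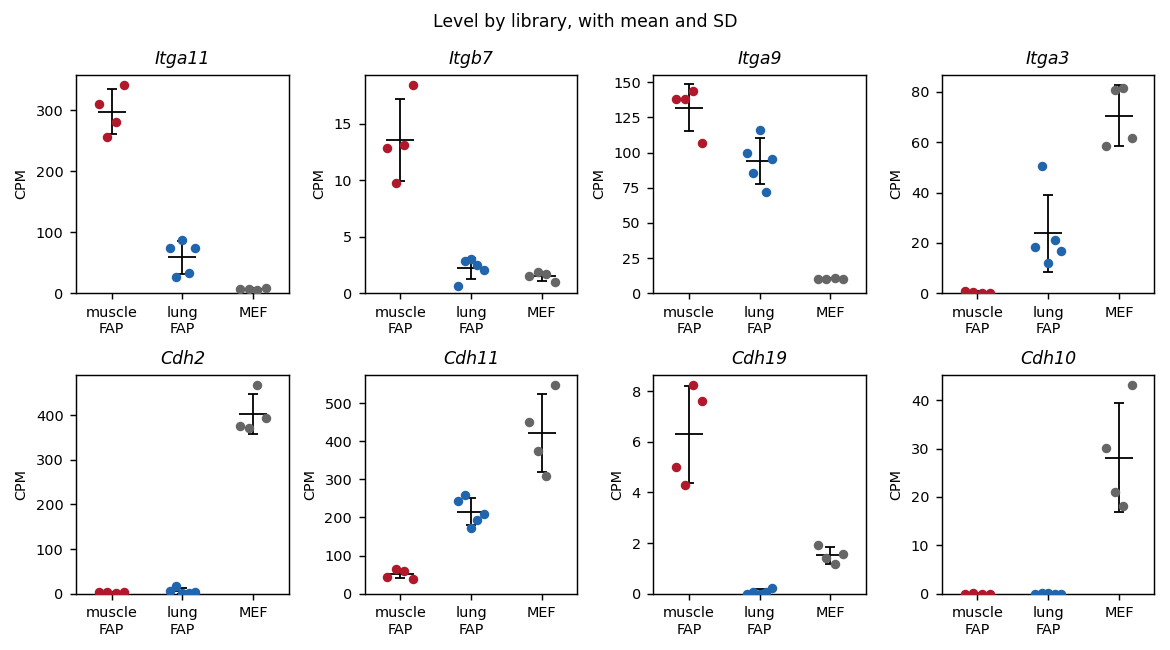
CPM of 8 genes in each library (points) with the mean and SD of muscle FAPs (red), lung FAPs (blue) and MEFs (grey); each panel has its own axis from 0. Itga11, Itgb7 and Cdh19 stand highest in muscle FAPs, Itga9 is high in both kinds of FAP, Itga3 and Cdh11 are lowest in muscle FAPs and highest in MEFs, and Cdh2 and Cdh10 are near the axis in FAPs.

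Between muscle and lung FAPs, the type II cadherins held the farthest fitted changes of all 38 genes in both directions, Cdh19 and Cdh22. Cdh11 (the cadherin of mesenchyme, in joints and bone) had 44.97, 63.6, 59.5 and 39.2 CPM in muscle FAPs, 243, 259, 171, 192 and 210.3 CPM in lung FAPs, and 450.2, 375, 309 and 549 CPM in MEFs. The groups were ordered from muscle FAPs, lowest, to MEFs, highest, with no overlap. Muscle FAPs were 4.15-fold below lung FAPs (log2 fold change of −2.05, SE 0.20, adjusted p = 8.45e-07 by edgeR) and 8.12-fold below MEFs (−3.02, SE 0.24, adjusted p = 3.85e-09), and lung FAPs were 1.96-fold below MEFs (−0.97, SE 0.21, adjusted p = 0.000182). The sum of pericyte and smooth muscle markers followed that order. It was 75.0 to 84.7 CPM in muscle FAPs, 238 to 1756 in FAPs of lung and 2075 to 3689 in MEFs. The single markers did not all do so. Of 7, lung FAPs against MEFs gave 3 higher, 2 lower and 2 that did not pass, where 37.8% of all genes were higher and 36.6% lower. Muscle FAPs against MEFs gave 3 lower and 4 that did not pass, where 37.3% of all genes were lower. The part of such cells in the Cdh11 levels was not tested.

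Cdh19, known from Schwann cells and their precursors, was the one cadherin higher in FAPs of muscle than of lung. It had 5.01, 4.29, 8.24 and 7.63 CPM in muscle FAPs, 0, 0.0571, 0, 0.0665 and 0.241 CPM in lung FAPs, and 1.94, 1.40, 1.16 and 1.56 CPM in MEFs. Lung FAPs lay at or near 0, muscle FAPs highest and MEFs between, with no overlap. It was 83.3-fold higher in FAPs of muscle than of lung (log2 fold change of 6.38, SE 0.51, adjusted p = 1.17e-06 by edgeR; 7.56 without lung FAP 5) and 4.15-fold higher than in MEFs (2.05, SE 0.27, adjusted p = 0.00210). In lung FAPs it was lower than in MEFs (−4.33, SE 0.48, adjusted p = 1.11e-05; −5.53 without lung FAP 5).

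Cdh6 (of kidney and neural crest), Cdh10 and Cdh18 (both of the nervous system) marked MEFs. Cdh10 had 0.0291, 0.0887, 0 and 0.0299 CPM in muscle FAPs, 0, 0.171, 0.0596, 0 and 0.0301 CPM in lung FAPs, and 30.2, 21.0, 18.2 and 43.1 CPM in MEFs, and the MEFs stood apart from all FAPs (log2 fold change of −9.45, SE 0.40, adjusted p = 3.75e-09 by edgeR in muscle FAPs; −8.94, SE 0.48, adjusted p = 1.38e-09 in lung FAPs). With so few reads in FAPs these values moved on leaving out 1 library, to −10.28 without muscle FAP 3 and −10.10 without lung FAP 2. Cdh6 had 0, 0.0296, 0.115 and 0 CPM in muscle FAPs, 0.458, 4.02, 0.238, 0.631 and 2.08 CPM in lung FAPs, and 16.5, 15.0, 15.5 and 20.2 CPM in MEFs. The groups did not overlap, with lung FAP 2 highest among FAPs. Cdh6 was lower in FAPs of muscle than of lung (log2 fold change of −5.22, SE 0.80, adjusted p = 0.00105 by edgeR) and than in MEFs (−8.71, SE 0.40, adjusted p = 4.55e-06), and lower in lung FAPs than in MEFs (−3.49, SE 0.70, adjusted p = 0.000260). Those values were −4.40 and −4.33 for lung FAPs without lung FAP 2, and −6.83 and −10.33 for muscle FAPs without muscle FAP 4. Cdh18 had 0.320, 0.177, 0.0288 and 0.120 CPM in muscle FAPs, 0.115, 0.343, 0, 0 and 0.481 CPM in lung FAPs, and 9.11, 5.77, 5.95 and 7.52 CPM in MEFs. It was lower than in MEFs in muscle FAPs (log2 fold change of −5.43, SE 0.48, adjusted p = 3.83e-05 by edgeR) and in lung FAPs (−5.20, SE 0.71, adjusted p = 1.87e-05; −5.90 without lung FAP 5), and the FAPs overlapped.

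Cdh9, Cdh12 and Cdh22 had their highest levels in lung FAPs. Cdh9, another cadherin of the nervous system, had 1.66, 1.01, 4.06 and 2.31 CPM in muscle FAPs, 4.61, 1.199, 9.92, 11.3 and 4.66 CPM in lung FAPs, and 0.121, 0.0849, 0.477 and 0.0410 CPM in MEFs. Both kinds of FAP lay above MEFs (log2 fold change of 3.63, SE 0.67, adjusted p = 0.000756 by edgeR in muscle FAPs; 5.12, SE 0.78, adjusted p = 4.38e-05 in lung FAPs), by more without MEF 3 (4.72 and 6.22). The FAPs overlapped (−1.48, adjusted p = 0.0712), and lung FAPs passed as higher without muscle FAP 4 (adjusted p = 0.0467), without lung FAP 2 (0.0156) and without lung FAP 2 and 3 (0.0322). Cdh22, a cadherin of brain, had 1 read over all muscle FAPs against 1.73 to 6.20 CPM in the lung FAPs, a level 479 times lower in muscle FAPs (95% exact counting interval 85.6 to 18940; edgeR adjusted p = 1.29e-06; fitted log2 −8.36, and −10.03 without muscle FAP 4, the library with that read). In lung FAPs it was 30.8-fold higher than in MEFs (4.95, SE 0.46, adjusted p = 2.33e-06), whose libraries held 0.0485 to 0.182 CPM. Muscle FAPs were lower than MEFs, at a level 15.0 times lower (95% counting interval 2.41 to 624; edgeR adjusted p = 0.00512; fitted log2 −3.41, and −5.10 without muscle FAP 4). Cdh12 had no read in any muscle FAP and 0.257 to 1.98 CPM in lung FAPs, at least 37.0-fold lower in muscle FAPs when set against a floor of 3 counts over the group (edgeR adjusted p = 0.000573, and 0.000828 without lung FAP 1). In lung FAPs it was above MEFs (log2 fold change of 4.28, SE 0.57, adjusted p = 0.00135 by edgeR; 3.63 without lung FAP 1 and 5.42 without MEF 4). Muscle FAPs and MEFs did not pass for Cdh12 (adjusted p = 0.0708), and passed without MEF 2 (0.0386).

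Neighbours on a chromosome differed in direction. Cdh6, Cdh9, Cdh10, Cdh12 and Cdh18 lie on mouse chromosome 15 of GRCm38, at chr15:13028701-13173675, chr15:16728756-16857094, chr15:18818947-19014236, chr15:20449265-21589533 and chr15:22549022-23474418. Of these, Cdh6, Cdh10 and Cdh18 were lower in both kinds of FAP than in MEFs, while Cdh9 was higher in both and Cdh12 higher in lung FAPs. On chromosome 1, Cdh19 (chr1:110888326-110977584) was detected in muscle FAPs, while its relatives Cdh7 (chr1:109982431-110140157) and Cdh20 (chr1:104768529-104995481) were too low to be tested: Cdh7 had no read in any FAP and at most 0.0454 CPM in a MEF library, and Cdh20 stayed between 0 and 0.553 CPM. Cdh8, the third gene that was not tested, had no read in muscle FAPs, 1 read over all lung FAPs, and 0.191 to 0.454 CPM in MEFs.

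The last cadherins are Cdh13, Cdh24 and those outside the classical types. Cdh13 (T-cadherin, a receptor of adiponectin that is anchored by a lipid and lacks a cytoplasmic tail) had 21.8, 49.1, 21.2 and 37.1 CPM in muscle FAPs, 16.6, 43.9, 16.7, 12.5 and 34.1 CPM in lung FAPs, and 18.1, 21.7, 20.4 and 17.5 CPM in MEFs. The groups overlapped and no comparison passed (adjusted p = 0.399 between both kinds of FAP, 0.0947 and 0.389 against MEFs for muscle and lung FAPs). Muscle FAPs passed as higher than MEFs when those groups were fitted alone (adjusted p = 0.0115). The muscle libraries fell into a higher pair, 3 and 5, and a lower pair, 2 and 4. Tenocyte markers (Tnmd, Scx and Mkx) and mesothelial markers were likewise higher in muscle FAP 3 and 5, at 71.2 and 70.4 CPM for the tenocyte sum, against 42.7 and 38.8 in muscle FAP 2 and 4, and at 22.2 and 24.7, against 1.31 and 0.662, for the mesothelial sum. Their part in the Cdh13 values was not tested.

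The rest stayed under 5 CPM. Cdh24, a type II cadherin, ran from 0.461 to 1.15 CPM in muscle FAPs, 0.722 to 1.74 in FAPs of lung and 2.57 to 4.32 in MEFs, and was lower than in MEFs in both (log2 fold change of −2.105, SE 0.32, adjusted p = 0.000279 by edgeR for muscle FAPs; −1.63, SE 0.33, adjusted p = 0.00106 for lung FAPs, −2.25 without lung FAP 2 and 3). Cdh26, known from epithelia in allergic inflammation, ran from 0 to 0.296 CPM in muscle FAPs, 0 to 0.400 in FAPs of lung and 2.21 to 3.04 in MEFs, and was lower in muscle FAPs (log2 fold change of −4.34, SE 0.59, adjusted p = 0.000824 by edgeR; −5.20 without muscle FAP 3) and lung FAPs (−4.49, SE 0.58, adjusted p = 0.000301; −6.00 without lung FAP 2) than in MEFs. Cdh16 (of kidney) and Cdh17 (of liver and intestine) reached at most 4.22 and 1.51 CPM, both in MEF 2. Cdh16 was lower in muscle FAPs than in MEFs (log2 fold change of −5.39, SE 0.61, adjusted p = 0.00173 by edgeR; −6.44 without muscle FAP 4 and −4.70 without MEF 2). Its call below lung FAPs (adjusted p = 0.0396) was lost without muscle FAP 2, 3 or 5 or lung FAP 3, or lung FAP 2 and 3 together, where it ranged from 0.0764 to 0.344, and its value was −4.39 without muscle FAP 4. Against MEFs lung FAPs did not pass for Cdh16 (−2.04, adjusted p = 0.0664) and passed without lung FAP 3 (−3.30, adjusted p = 0.00441). Cdh17 was lower in lung FAPs than in MEFs (log2 fold change of −2.18, SE 0.81, adjusted p = 0.0320 by edgeR), a call lost without MEF 2 (adjusted p = 0.0725) or MEF 3 (0.0653) and larger without lung FAP 4 (−2.98). Cdh15 did not pass in lung FAPs against MEFs (−2.04, adjusted p = 0.0598), and passed without lung FAP 2 (adjusted p = 0.0328) or lung FAP 3 (0.0323). Cdh23, the cadherin of inner ear hair cells, lay between 0.180 and 1.12 CPM and passed in no comparison.

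The lung FAP libraries varied most. Lung FAP 2 was the highest of its group for Itga1, Itga2, Itga3, Itga4, Itga6, Itga7, Itga10, Itgb1, Itgb2, Cdh2, Cdh11 and Cdh13, and the lowest for Itga5, Itga11, Itgb3, Itgb5 and Cdh9, among genes over 5 CPM in any of them. It also had the highest endothelial and pericyte sums, and the level of the endothelial cadherin Cdh5, which the rule leaves out, was 151 CPM there, against 2.03 to 34.8 in the other lung FAPs. Itga8, the other gene left out and a chain known from lung fibroblasts and smooth muscle, was 6.17-fold lower in FAPs of muscle than of lung (log2 fold change of −2.63, SE 0.34, adjusted p = 3.03e-05 by edgeR). Leaving out lung FAP 2 and 3 kept the counts for muscle FAPs against lung FAPs at 9 higher and 11 lower, and gave 11 higher and 20 lower for lung FAPs against MEFs, against 11 and 16 with them. The 16 stayed lower, and Itgb4, Cdh15, Cdh16 and Cdh8 joined them. Cdh8 was not among the genes tested in the main fit of all libraries. Without lung FAP 2 and 3, the log2 values of lung FAPs over MEFs were −11.03 for Cdh10, −6.26 for Cdh26, −6.61 for Cdh2, −4.34 for Itga6 and 0.96 for Itga1. The Cdh16 value of muscle over lung FAPs was then −1.49, against −3.35 with them. What other cells contributed to these values was not tested.

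**Figure D5:**
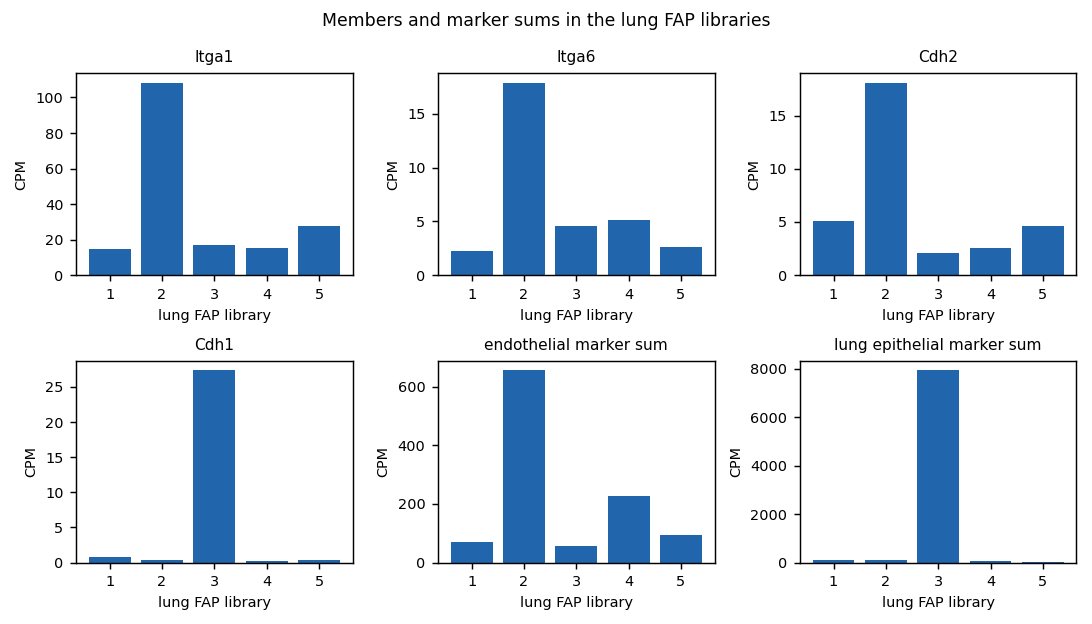
CPM in each of the 5 lung FAP libraries for Itga1, Itga6, Cdh2 and Cdh1 and for the summed endothelial and lung epithelial marker lists; each bar is 1 library and each panel has its own axis from 0. Itga1, Itga6, Cdh2 and the endothelial sum (656) are highest in lung FAP 2, and Cdh1 and the lung epithelial sum (7951) in lung FAP 3.

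The ligands that these integrins bind, a list of 23 matrix and surface proteins, were higher in muscle FAPs in 15 cases, lower in 3 and did not pass in 5 when set against lung FAPs, where 23.2% of all genes were higher and 25.0% lower. The median log2 fold change was 1.01, against −0.04 over all genes tested. Against MEFs 14 were higher and 7 lower in muscle FAPs (median 1.77, against −0.04), and 13 higher and 6 lower in lung FAPs (1.08, against 0.02). Of all genes 36.1% were higher and 37.3% lower in muscle FAPs than in MEFs, and 37.8% and 36.6% in lung FAPs. Vtn (vitronectin, bound by Itgav with Itgb3 or Itgb5) averaged 206 ± 26.9 CPM in muscle FAPs, 9.37 ± 10.7 in FAPs of lung and 0.0714 ± 0.0439 in MEFs, 21.9-fold higher in muscle than in lung FAPs (log2 fold change of 4.45, SE 0.56, adjusted p = 6.68e-05 by edgeR). Npnt (nephronectin, the ligand of Itga8) averaged 1.19 ± 0.311 CPM in muscle FAPs, against 233 ± 139 CPM in FAPs of lung (log2 fold change of −7.61, SE 0.40, adjusted p = 4.47e-08 by edgeR). Tnc (tenascin-C) and Spp1 (osteopontin), both bound by Itga9, were lower in both kinds of FAP than in MEFs. Itga9 itself was higher in both kinds of FAP than in MEFs. Between muscle and lung FAPs Tnc was higher in muscle FAPs, as was Itga9 (log2 fold change of 1.74, SE 0.44, adjusted p = 0.00116 by edgeR). Vcam1, another ligand of Itga9, was 3.92-fold higher in muscle FAPs and 5.24-fold higher in lung FAPs than in MEFs. Tnc averaged 13.2 ± 7.42 CPM in lung FAPs and 2113 ± 455 in MEFs (log2 fold change of −7.32, SE 0.43, adjusted p = 2.78e-09 by edgeR), and Spp1 2.33 ± 1.04 in muscle FAPs and 436 ± 286 in MEFs (log2 fold change of −7.54, SE 0.71, adjusted p = 0.00120 by edgeR).

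The cytoplasmic partners that tie integrins to actin were mostly lower in FAPs than in MEFs. Of 27 tested, 22 were lower and 4 higher in muscle FAPs, where 37.3% of all genes were lower and 36.1% higher. In lung FAPs 19 were lower and 4 higher, where 36.6% of all genes were lower and 37.8% higher. Muscle against lung FAPs gave 5 higher and 11 lower, where 23.2% of all genes were higher and 25.0% lower. The medians were −1.48, −1.07 and −0.51, against −0.04, 0.02 and −0.04 over all genes. Actn1 (alpha-actinin, a linker of actin) averaged 30.6 ± 7.23 CPM in muscle FAPs, 75.0 ± 25.9 in FAPs of lung and 1140.0 ± 26.9 in MEFs, with log2 fold changes against MEFs of −5.22 and −3.93 (edgeR adjusted p = 5.36e-10 and 2.19e-09). Parvb (beta-parvin, of focal adhesions) was 9.28-fold lower in muscle than in lung FAPs (log2 fold change of −3.21, SE 0.57, adjusted p = 7.56e-05 by edgeR) and 30.0-fold lower than in MEFs (log2 fold change of −4.91, SE 0.46, adjusted p = 7.37e-07 by edgeR). Ptk2b (a kinase akin to focal adhesion kinase) was 8.80-fold lower in muscle than in lung FAPs (log2 fold change of −3.14, SE 0.29, adjusted p = 3.71e-07 by edgeR). Tenc1, a tensin, was the exception among those named, at 358 ± 90.1 CPM in lung FAPs and 18.03 ± 2.62 in MEFs (log2 fold change of 4.31, SE 0.20, adjusted p = 3.21e-11 by edgeR).

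Of 11 cadherin partners tested, 2 were higher and 6 lower in muscle FAPs against lung FAPs, 1 higher and 9 lower in muscle FAPs against MEFs, and 2 higher and 7 lower in lung FAPs against MEFs. The medians were −0.62, −0.78 and −0.68, against −0.04, −0.04 and 0.02 over all genes. Of all genes 23.2% were higher and 25.0% lower in the first comparison, 36.1% and 37.3% in the second, and 37.8% and 36.6% in the third. Jup (plakoglobin, a catenin of cell junctions) averaged 143 ± 11.3 CPM in muscle FAPs, 58.8 ± 9.70 in FAPs of lung and 191 ± 40.9 in MEFs. It was higher in muscle than in lung FAPs (log2 fold change of 1.28, SE 0.12, adjusted p = 4.40e-06 by edgeR), while the summed cadherins were lower in muscle FAPs. Plekha7, a protein of epithelial junctions, averaged 0.292 ± 0.338 CPM in muscle FAPs, 6.27 ± 1.81 in FAPs of lung and 10.4 ± 1.14 in MEFs (log2 fold change of −4.41, SE 0.72, adjusted p = 1.08e-05 by edgeR, muscle over lung). Ctnnd2, the catenin of neurons, averaged 0.0448 ± 0.0713 CPM in muscle FAPs, 2.37 ± 1.45 in FAPs of lung and 11.8 ± 0.465 in MEFs (log2 fold change of −7.96, SE 0.45, adjusted p = 9.62e-08 by edgeR, muscle over MEF).

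Of the 4 tested leukocyte and platelet chains, which the rule does not take, none was higher and 3 were lower in muscle than in lung FAPs, where 25.0% of all genes were lower. In muscle FAPs against MEFs 1 was higher and 1 lower, where 36.1% of all genes were higher and 37.3% lower. In lung FAPs against MEFs 3 were higher and 1 lower, where 37.8% of all genes were higher and 36.6% lower. The medians were −2.52, −0.79 and 1.52 for the comparisons in that order, against −0.04, −0.04 and 0.02 over all genes. Itgam, the myeloid partner of Itgb2, averaged 0.0294 ± 0.0238 CPM in muscle FAPs, 4.95 ± 3.55 in FAPs of lung and 11.8 ± 5.90 in MEFs, lower in muscle FAPs than in MEFs (log2 fold change of −8.50, SE 0.52, adjusted p = 1.42e-06 by edgeR) and in lung FAPs than in MEFs (adjusted p = 0.0438). Itga2b, the platelet partner of Itgb3, averaged 12.7 ± 1.79 CPM in muscle FAPs, 9.45 ± 1.13 in FAPs of lung and 1.90 ± 0.599 in MEFs. It was higher than in MEFs in both, by 6.68-fold (log2 fold change of 2.74, SE 0.23, adjusted p = 1.44e-08 by edgeR) and 4.96-fold (log2 fold change of 2.31, SE 0.22, adjusted p = 5.94e-08 by edgeR) for muscle and lung FAPs, the direction that Itgb3 took.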

How the data were processed

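The table the authors deposited gives a raw count for every gene in each of 13 libraries (0 columns belong to other samples). According to the submitters' processing notes the build was mm10, the aligner Bowtie2 2.1.0.0 and the counter HTSeq, with edgeR named as well; the sources used here give neither annotation nor strand setting. Here, TMM scaling and a robust quasi-likelihood fit in edgeR 4.0.16 (R 4.3.3) used all 13 libraries with group as the only term. The filter filterByExpr left 15412 genes, over which p-values were adjusted by Benjamini-Hochberg. The SE of a log2 fold change came from log2 CPM with a prior count of 2 and not from the fit. For genes with few or no reads in a group it can therefore understate the error of the fitted value. Cdh6 in muscle FAPs against MEFs, at −8.71 with an SE of 0.40, moved to −10.33 without muscle FAP 4. Exon lengths and positions are from GENCODE M21. There, Itga10 shares 1739 of its 5044 exon bases with Gm42957 and Itga1 451 of 10967 with Gm49395, both on the same strand. Itgb4 shares 537 of 6384 with B230344G16Rik and Cdh9 224 of 3539 with Gm49127, both on the opposite strand. None of these other genes is in the deposited table. At these depths a floor of 3 counts over a group was 0.0220 CPM for muscle FAPs, 0.0180 for lung FAPs and 0.0166 for MEFs; such floors, like the intervals, hold for counting error alone. The labels do not say that libraries come from separate animals or cultures, so p-values rest on the spread among these libraries, which may be technical. No libraries of a group agreed within sampling noise. The genes and lists were chosen with earlier results of these data known, and 1 marker list is not reported here. Every gene is named, and the 29 that averaged 5 CPM or more in some group are given by library; from the other lists the 2 passing genes with the largest change and 5 CPM in the higher group were named in each comparison. The alternatives were DESeq2 1.42.0 (size factors and Wald test), limma-voom (limma 3.58.1), other scalings and filters, glmTreat against a 2-fold change, compared groups alone, a replicate block and leaving out libraries.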

Additional observations from a re-analysis of the deposited data

Results flagged for a closer look

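In 9 of 87 checks, each of 1 gene in 1 group, the highest or lowest library stood apart from the others by Dixon's test at the 5% level, where chance gives about 1 in 20. In lung FAP 2, Itga1 was at 108 CPM (15.0 to 27.8 in the other lung FAPs), Itga3 at 50.6 (11.9 to 21.2), Itga6 at 17.9 (2.21 to 5.12) and Cdh2 at 18.1 (2.12 to 5.13), while Itgb3 was lowest there at 14.9 (28.0 to 32.7). So 5 of the 9 fall in the lung FAP library with the highest endothelial and pericyte marker sums of its group. Cdh1 in lung FAP 3 was at 27.4 CPM (0.199 to 0.773 in the other lung FAPs), beside the highest lung epithelial sum. Cdh19 in lung FAP 5 was at 0.241 CPM (0 to 0.0665 in the others). Itga5 in MEF 3 was at 284 CPM (215 to 227 in the other MEFs), in the MEF library with the lowest blood cell sum. Itga9 in muscle FAP 5 was lowest of its group at 107 CPM (138 to 144 in the others). The part of other cells in these values was not tested.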

How the results depend on the processing

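For muscle FAPs against lung FAPs, the 9 genes higher became 5 when libraries were scaled by size alone and 3 when glmTreat asked for more than a 2-fold change; for lung FAPs against MEFs, the 11 higher became 7 with glmTreat. These 2 settings do so by construction, since the first moves muscle FAP values down and the second asks for a larger change. The other counts stayed within 1.5 times. Leaving out each library in turn gave 9 to 10 higher and 10 to 12 lower for muscle against lung FAPs, 11 to 11 higher and 19 to 20 lower for muscle FAPs against MEFs, and 10 to 12 higher and 15 to 19 lower for lung FAPs against MEFs. For muscle over lung FAPs, Itga1 (−0.42 with all libraries) ranged from −0.62 to 0.56 on leaving out each library in turn, the last without lung FAP 2 (adjusted p = 0.0176). When scaled by size alone, Itga6, Itga10, Cdh2 and Cdh9 also passed as lower in muscle than in lung FAPs, and Itgb5 in lung FAPs against MEFs was lost (adjusted p = 0.191). Whether the replicate numbers pair the libraries is not given in the labels. Deviations of same-numbered libraries correlated at −0.048 to 0.061, and such low values cannot show that the libraries are unpaired. With the number as a replicate block the counts were 9 higher and 10 lower, 11 and 19, and 10 and 17 for the 3 comparisons. That block ended the calls of Cdh16 in muscle against lung FAPs (adjusted p = 0.0967), Itga1 in muscle FAPs against MEFs (0.0581) and Itgb5 in lung FAPs against MEFs (0.0612), and Cdh15 passed there (0.0328). In limma-voom, Cdh22 in muscle FAPs against MEFs (adjusted p = 0.0707) and Cdh16 in muscle against lung FAPs (0.341) did not pass, nor did Itga1 in muscle FAPs against MEFs with no filter (0.0588). In muscle FAPs against MEFs, limma-voom passed Itgb6 (0.00943), Cdh13 (0.0406), Cdh15 (0.00117) and Cdh17 (0.0326), and the first 3 also passed with the compared groups alone. Cdh9 in muscle against lung FAPs passed in DESeq2 (0.0343) and limma-voom (0.0481). Depth limits the cadherins under 1 CPM, most of all where reads are fewest. Over all muscle FAPs, Cdh6, Cdh10, Cdh12, Cdh16 and Cdh22 had 0 to 6 reads each, while Cdh24 had 111.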
